A study of Mus musculus with 18 samples.

Results

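The IL-1 (interleukin-1) family receptor genes and their adaptor were followed across 6 genotypes of mouse regulatory T (Treg) cells, as 6 members: the receptor genes Il1rl1, Il18r1, Il18rap, Il1r1 and Il1r2, and the adaptor gene Myd88. They were picked by gene symbol from a table of 23949 entries with a unique symbol, and all 6 members were found and passed the filter on low values (at least 1 RPKM in at least 3 libraries). The mice were on the C57BL/6 background, Treg cells were purified by sorting on CD4 and high CD25, and each genotype had 3 libraries of total RNA, 18 in all. The miR-23 Tg, miR-24 Tg and miR-27 Tg groups overexpressed 1 microRNA of the miR-23 cluster in T cells, and the cluster Tg group overexpressed the whole cluster. In the DKO group the clusters of miR-23a and miR-23b were both deleted in T cells. The WT group was the control. The series title names CD4cre, which acts in all T cells that pass through the CD4-expressing stage and so is not limited to Treg cells, and the labels do not say whether WT mice carried it. The labels also do not say that the libraries of a group came from separate animals, so p-values measure the spread between these libraries.

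Receptors of the IL-1 family work in pairs: a ligand-binding chain recruits an accessory chain, and the Toll/IL-1 receptor domains of both chains bind the adaptor MyD88. MyD88 gathers the kinases IRAK4, IRAK1 and IRAK2 and the ubiquitin ligase TRAF6, which lead through TAK1 to NF-kB and to MAP kinases. Il1rl1 encodes ST2, the receptor for IL-33, which is known as a marker of Treg cells in tissues. Il18r1 and Il18rap encode the binding and the accessory chain of the IL-18 receptor. Il1r1 encodes the signalling receptor for IL-1, and Il1r2 encodes a decoy that binds IL-1 without signalling.

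The overexpressed microRNAs are shown because their seed (bases 2 to 8, in capitals) decides which messages they pair with. The mature sequences are those of RefSeq (GRCm38.p6, chromosome 8, plus strand), of the miR-23a cluster.
mmu-miR-23a-3p: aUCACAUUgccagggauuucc
mmu-miR-27a-3p: uUCACAGUggcuaaguuccgc
mmu-miR-24-3p: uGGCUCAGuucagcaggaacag
The seeds of miR-23a and miR-27a begin with the same letters, UCACA, and end differently, while that of miR-24 shares no such start. The matching sites in a message are AATGTGA for miR-23a, ACTGTGA for miR-27a and CTGAGCC for miR-24.

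The values are RPKM, read counts scaled to transcript length and to library depth, so levels of different genes can be set side by side. The depth, estimated from the steps between low values, was 20.9 to 31.9 megareads per library, and 10710 to 11121 genes reached 1 RPKM. At that depth each member rested on at least about 208 reads in every library (Il1r1, the lowest), a counting error of 6.9% or less. The median chi-square between libraries of 1 group was 10.1 to 48.7 times what counting error gives, so no library was a duplicate of another in its group. Pairs across groups were not compared in this way. Treg markers (Foxp3, Il2ra, Ctla4, Ikzf2) summed to 782 to 1230 RPKM in every library. Markers of 5 B cell genes summed to 34.8 to 94.0 RPKM in miR-27 Tg and 36.9 to 82.3 in miR-24 Tg, against 19.1 to 24.1 in WT, and were 32.9 to 40.3 in miR-23 Tg and 28.3 to 42.3 in cluster Tg. The sum of 6 myeloid genes was highest in miR-24 Tg library 1 (111 RPKM) and miR-27 Tg library 3 (89.0), against 12.3 to 19.2 in WT, and the member calls are also given without those 2 libraries. Reads at the microRNA loci followed the genotypes: Mir27a, for example, stood at 50010 to 79110 RPKM in miR-27 Tg and 13710 to 24080 in cluster Tg, at 0 in each DKO library, and at 0 to 347 in WT. These are reads over very short loci and do not measure the mature microRNAs.

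All 5 receptor genes rose over WT in miR-27 Tg, by 2.34-fold to 4.03-fold, and in cluster Tg, by 1.89-fold to 4.59-fold. In miR-24 Tg only the IL-18 receptor genes passed the test, and in miR-23 Tg and DKO no member did. Myd88 passed in no comparison. In bulk RNA, more cells that express a gene and more RNA per cell cannot be told apart. The test was limma on log2(RPKM + 0.5) over the 18 libraries, two-sided, and a gene is said to have risen or fallen where its p, adjusted by Benjamini-Hochberg over 11520 genes, was under 0.05. Fold changes are on this scale, so for low genes they are smaller than the ratio of the printed RPKM values. Where libraries of 2 groups are said not to overlap, this is description only. The share of all genes that separate in this way was not counted. With 3 against 3 libraries, full separation alone reaches p = 0.1 in a two-sided exact permutation test.

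**Figure D1:**
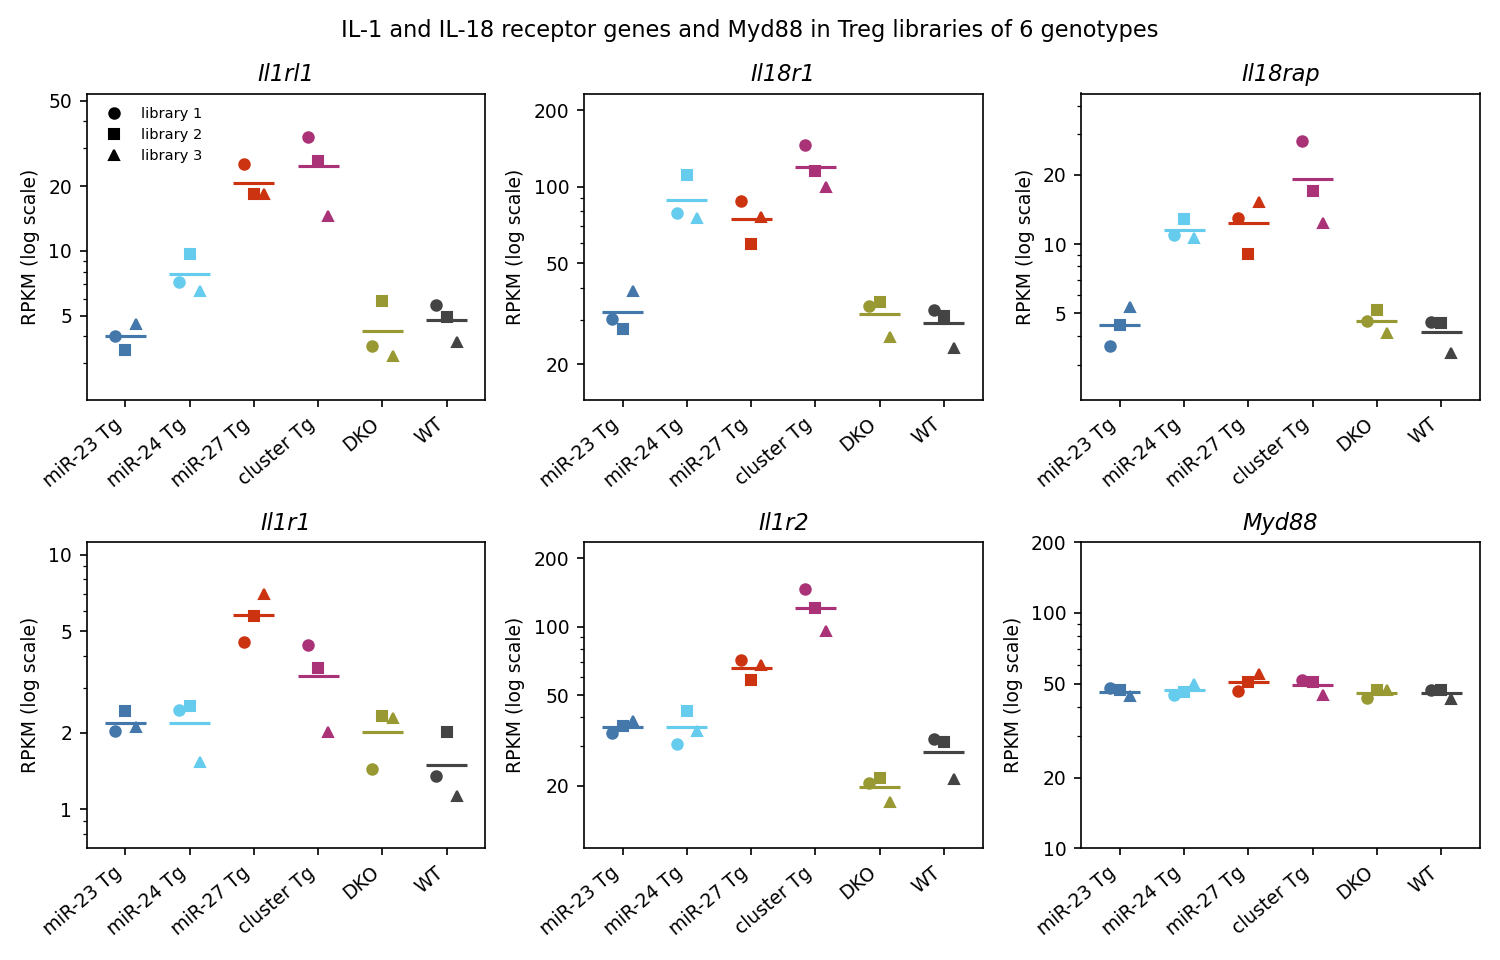
RPKM of the 6 genes in each library, on a log scale that differs between panels (points: libraries 1 to 3 of each genotype, lines: group means). Every miR-27 Tg and cluster Tg library lies above every WT library for the 5 receptor genes, for Il1r1 in cluster Tg by only 2.014 against 2.013 RPKM. The 18 Myd88 values lie between 43.2 and 54.8 RPKM.

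Il1rl1 had the widest range of the 6, with 10.4 times between its highest and lowest library. It stood at 25.3, 18.5 and 18.4 RPKM in miR-27 Tg libraries 1 to 3, against 5.63, 4.92 and 3.77 in WT. In cluster Tg it stood at 33.7, 26.2 and 14.5 RPKM. Every library of both groups lay above every WT library. The log2 fold change was 2.01 ± 0.27 in miR-27 Tg (SE; 4.03-fold, adjusted p = 0.000194) and 2.198 ± 0.274 in cluster Tg (4.59-fold, adjusted p = 0.000129). In miR-24 Tg Il1rl1 stood at 7.16, 9.67 and 6.53 RPKM, which also did not overlap WT, but with a log2 fold change of 0.65 ± 0.27 it did not pass (adjusted p = 0.162). Libraries of miR-23 Tg (4.04, 3.46 and 4.55 RPKM) and DKO (3.63, 5.85 and 3.24 RPKM) overlapped those of WT. By mean the order was cluster Tg, miR-27 Tg, miR-24 Tg, WT, DKO and miR-23 Tg, and the neighbours cluster Tg and miR-27 Tg, WT and DKO, and DKO and miR-23 Tg overlapped.

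The IL-18 receptor genes rose in 3 of the 5 genotypes. Il18r1, the binding chain, stood at 78.8, 111 and 75.6 RPKM in miR-24 Tg, against 32.8, 31.1 and 23.2 in WT. It stood at 87.7, 59.3 and 75.9 RPKM in miR-27 Tg. In cluster Tg it stood at 145, 115 and 99.6 RPKM. All 9 of these libraries lay above all WT libraries, and above all of miR-23 Tg (30.1, 27.6 and 38.8 RPKM) and DKO (34.0, 35.3 and 25.6 RPKM). The rise over WT was 3.0-fold in miR-24 Tg (log2 1.59 ± 0.21 SE, adjusted p = 0.000529), 2.53-fold in miR-27 Tg (adjusted p = 0.000429) and 4.07-fold in cluster Tg (adjusted p = 3.79e-05). By mean, cluster Tg and miR-24 Tg overlapped, as did miR-24 Tg and miR-27 Tg, and miR-23 Tg, DKO and WT overlapped one another.

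Il18rap, the accessory chain, was lower in level and moved with Il18r1. It stood at 10.9, 12.8 and 10.6 RPKM in miR-24 Tg, against 4.58, 4.56 and 3.37 in WT. In miR-27 Tg it stood at 12.9, 9.05 and 15.2 RPKM, and in cluster Tg at 28.2, 17 and 12.3. Libraries of miR-23 Tg (3.60, 4.47 and 5.33 RPKM) and DKO (4.62, 5.17 and 4.13 RPKM) overlapped WT, and those of the other 3 groups did not. The rise was 2.58-fold in miR-24 Tg (log2 1.36 ± 0.25 SE, adjusted p = 0.0042), 2.72-fold in miR-27 Tg (adjusted p = 0.000855) and 4.01-fold in cluster Tg (adjusted p = 0.000129).

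The IL-1 receptors parted from the IL-18 receptor genes in miR-24 Tg. Il1r1, the signalling receptor, was the lowest of the 6 genes, at 4.55, 5.76 and 7.01 RPKM in miR-27 Tg, against 1.35, 2.01 and 1.12 in WT. In cluster Tg it stood at 4.42, 3.58 and 2.01 RPKM, and cluster Tg library 3 lay just above the highest WT library (2.014 against 2.013 RPKM). The rise was 3.16-fold in miR-27 Tg (log2 1.66 ± 0.25 SE, adjusted p = 0.00041) and 1.89-fold in cluster Tg (log2 0.91 ± 0.25, adjusted p = 0.0186). The cluster Tg call did not hold without cluster Tg library 1 (adjusted p = 0.101), cluster Tg library 2 (0.0585), WT library 1 (0.0599) or WT library 3 (0.073), nor with only those 2 groups in the fit (0.0702). In miR-24 Tg Il1r1 stood at 2.45, 2.54 and 1.53 RPKM (adjusted p = 0.334), in miR-23 Tg at 2.03, 2.42 and 2.11 (adjusted p = 0.466) and in DKO at 1.45, 2.33 and 2.28 (adjusted p = 1). Of these 3 groups, only miR-23 Tg did not overlap WT.

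Il1r2, the decoy, was also highest in cluster Tg. It stood there at 147, 120.2 and 95.7 RPKM, against 32.1, 31.3 and 21.5 in WT. In miR-27 Tg it stood at 71.5, 58.1 and 68.1 RPKM. Neither group overlapped WT, and they did not overlap each other. The rise was 4.22-fold in cluster Tg (log2 2.08 ± 0.18 SE, adjusted p = 9.98e-06) and 2.34-fold in miR-27 Tg (log2 1.22 ± 0.18, adjusted p = 0.000275). In miR-24 Tg it stood at 30.6, 42.8 and 35.0 RPKM (adjusted p = 0.232), and in miR-23 Tg at 34.2, 36.7 and 38.3 (adjusted p = 0.36), where every library lay above every WT library. In DKO it stood at 20.6, 21.6 and 17.01 RPKM, with a log2 fold change of -0.49 ± 0.18 that did not pass (adjusted p = 1). Neutrophils also express Il1r2. The summed level of 4 neutrophil markers was 0.0481 to 4.23 RPKM in cluster Tg, 1.2 to 31.3 in miR-27 Tg, 0.642 to 77.1 in miR-24 Tg, 7.29 to 18.5 in miR-23 Tg and 0 to 0.0263 in DKO, against 0.0496 to 0.897 in WT. All miR-23 Tg and miR-27 Tg libraries lay above WT for this sum. Its part in the Il1r2 values was not tested.

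Myd88 differed little. It stood at 46.6, 51.0 and 54.8 RPKM in miR-27 Tg, its highest group by mean, against 46.8, 47.1 and 43.2 in WT. The groups overlapped, and the log2 fold change was 0.15 with a 95% confidence interval of -0.01 to 0.31 (adjusted p = 0.157). In the other 4 genotypes the log2 fold change against WT lay between 0.0046 and 0.11.

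**Figure D2:**
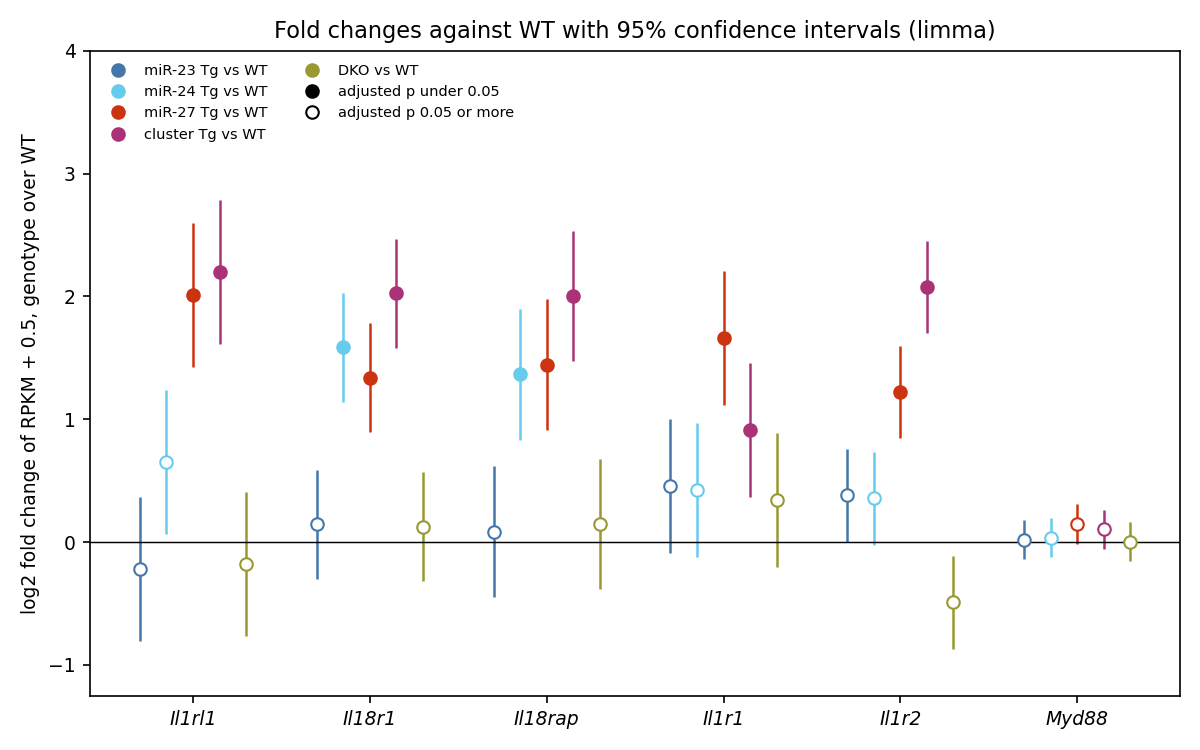
Log2 fold change of RPKM + 0.5 against WT for each gene (points: limma estimates, whiskers: 95% confidence intervals, filled: adjusted p under 0.05). The filled points are the 5 receptor genes in miR-27 Tg and cluster Tg and the IL-18 receptor genes in miR-24 Tg; the DKO point of Il1r2 is at -0.49.

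Counted over the 6 members and set beside all genes tested, 5 rose in miR-27 Tg, where 15.9% of all genes were called higher and 12.7% lower. In cluster Tg 5 rose, where 13.8% of all genes were higher and 10.5% lower. In miR-24 Tg 2 rose, where 4.6% of all genes were higher and 4.38% lower. In miR-23 Tg limma called 0 of 6 at adjusted p under 0.05 and 1 of 6 (Il1r2) at an unadjusted p under 0.05, where 0.156% of all genes were higher and 0.2% lower. In DKO it also called 0 of 6, and 1 of 6 (Il1r2) at an unadjusted p under 0.05, where 0.0174% of all genes were higher and 0% lower. The median log2 fold change of the members was 2.02 in cluster Tg, 1.39 in miR-27 Tg, 0.54 in miR-24 Tg, 0.12 in miR-23 Tg and 0.07 in DKO, while that of all genes tested lay between -0.0041 and 0.0161. No member was called lower in any comparison. The members were chosen with earlier results of these data known, so these counts are description and no independent test. The 2 calls in miR-24 Tg and the 5 in miR-27 Tg held with library 1 of miR-24 Tg and library 3 of miR-27 Tg left out.

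The overexpressing groups were also compared with one another, with WT playing no part in the fold change. Against miR-24 Tg, miR-27 Tg was higher in Il1rl1 (2.57-fold, adjusted p = 0.00333), Il1r1 (2.35-fold, adjusted p = 0.00382) and Il1r2 (1.82-fold, adjusted p = 0.00351), 3 of 6 members where 13.2% of all genes were called higher. The IL-18 receptor genes did not pass there, with 95% confidence intervals of -0.69 to 0.20 on the log2 scale for Il18r1 and -0.45 to 0.61 for Il18rap. Against miR-23 Tg, miR-27 Tg was higher in all 5 receptor genes (1.79-fold to 4.67-fold), where 12.4% of all genes were higher. Also against miR-23 Tg, miR-24 Tg was higher in Il18r1 (2.71-fold, adjusted p = 0.000851), Il18rap (2.43-fold, adjusted p = 0.0049) and Il1rl1 (1.82-fold, adjusted p = 0.0496), where 7.37% of all genes were higher. That Il1rl1 call ended in each of the 6 fits that left out a library of those groups, at adjusted p = 0.0659 to 0.156.

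Cluster Tg was set against the single-microRNA groups that also rose. Against miR-24 Tg it was higher in Il1r2 (3.30-fold, adjusted p = 0.000204) and Il1rl1 (2.92-fold, adjusted p = 0.00396), where 6.45% of all genes were higher, and the Il1rl1 call ended with only those 2 groups in the fit (adjusted p = 0.0739). Without cluster Tg library 3 also Il18rap (adjusted p = 0.0208) and Il1r1 (adjusted p = 0.0444) were called there, 4 in all. Against miR-27 Tg only Il1r2 was higher (1.81-fold, adjusted p = 0.0128), where 3.5% of all genes were higher, and that call ended without cluster Tg library 1 (adjusted p = 0.057) or miR-27 Tg library 2 (adjusted p = 0.0608), or with only those 2 groups in the fit (adjusted p = 0.119). Without miR-27 Tg library 1, Il18r1 was called as well (adjusted p = 0.0375). Il1r1 was the receptor gene with the opposite sign, at 3.34 ± 1.22 RPKM in cluster Tg and 5.77 ± 1.23 in miR-27 Tg (SD, n = 3 each). Its libraries did not overlap, and its log2 fold change of -0.74 ± 0.25 did not pass (adjusted p = 0.092). Myd88 also had a negative log2 fold change there (-0.043, adjusted p = 0.77). Against DKO, cluster Tg was higher in Il1r2 (5.93-fold), Il1rl1 (5.19-fold), Il18r1 (3.73-fold) and Il18rap (3.63-fold), where 15.1% of all genes were higher, and Il1r1 did not pass (adjusted p = 0.109), except without cluster Tg library 3 (adjusted p = 0.0186).

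Within a group the members ranked the libraries alike in some genotypes. In cluster Tg library 1 was the highest and library 3 the lowest for all 6 members, with 2.32 times between them for Il1rl1 and 1.46 times for Il18r1. Reads at Mir23a (22900, 17110 and 11690 RPKM), Mir27a (24080, 18300 and 13710 RPKM) and Mir24-2 (7943, 6413 and 6052 RPKM) had the same order in cluster Tg libraries 1 to 3. In WT library 3 was the lowest for all 6 members. In DKO library 3 was the lowest for Il1rl1, Il18r1, Il18rap and Il1r2, and library 1 for Il1r1 and Myd88. Tnfaip3 is an NF-kB-induced gene that encodes the inhibitor A20. Its level was 469, 591 and 131 RPKM in cluster Tg libraries 1 to 3, against 565, 464 and 136 in WT. DKO libraries 1 to 3 had 530, 552 and 94.5 RPKM, so library 3 was low for Tnfaip3 in each of these groups. Library 3 was also its lowest in miR-27 Tg (31.65 RPKM), but not in miR-24 Tg (81.0, 791 and 195) or miR-23 Tg (529, 507 and 663). The part of these library differences in the member results was not tested.

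The 5 receptor genes together summed to 359, 282 and 224 RPKM in cluster Tg libraries 1 to 3, on average 288 ± 67.5, against 67.7 ± 12.9 in WT (SD, n = 3 each). The sum averaged 179 ± 26.1 in miR-27 Tg, 146 ± 28.6 in miR-24 Tg, 79.3 ± 8.58 in miR-23 Tg and 62.3 ± 9.17 in DKO. Il18r1 and Il1r2 made up most of it in each group. Il18r1 took 58.5 to 62.1% of the sum in miR-24 Tg, against 42.0 to 43.8% in WT, and Il1r2 took 23.6 to 27.1% there, against 40.6 to 42.4% in WT. DKO differed from WT in the same directions, with Il18r1 at 49.0 to 52.9% and Il1r2 at 30.8 to 32.5%, both outside the WT range. Il1r2 took 35.4 to 38.6% in miR-27 Tg, below every WT library, and 43.0 to 49.2% in miR-23 Tg, above every WT library. The Il18r1 shares of miR-27 Tg and miR-23 Tg overlapped WT. In cluster Tg both shares (40.5 to 44.4% and 41.0 to 42.7%) overlapped those of WT.

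**Figure D3:**
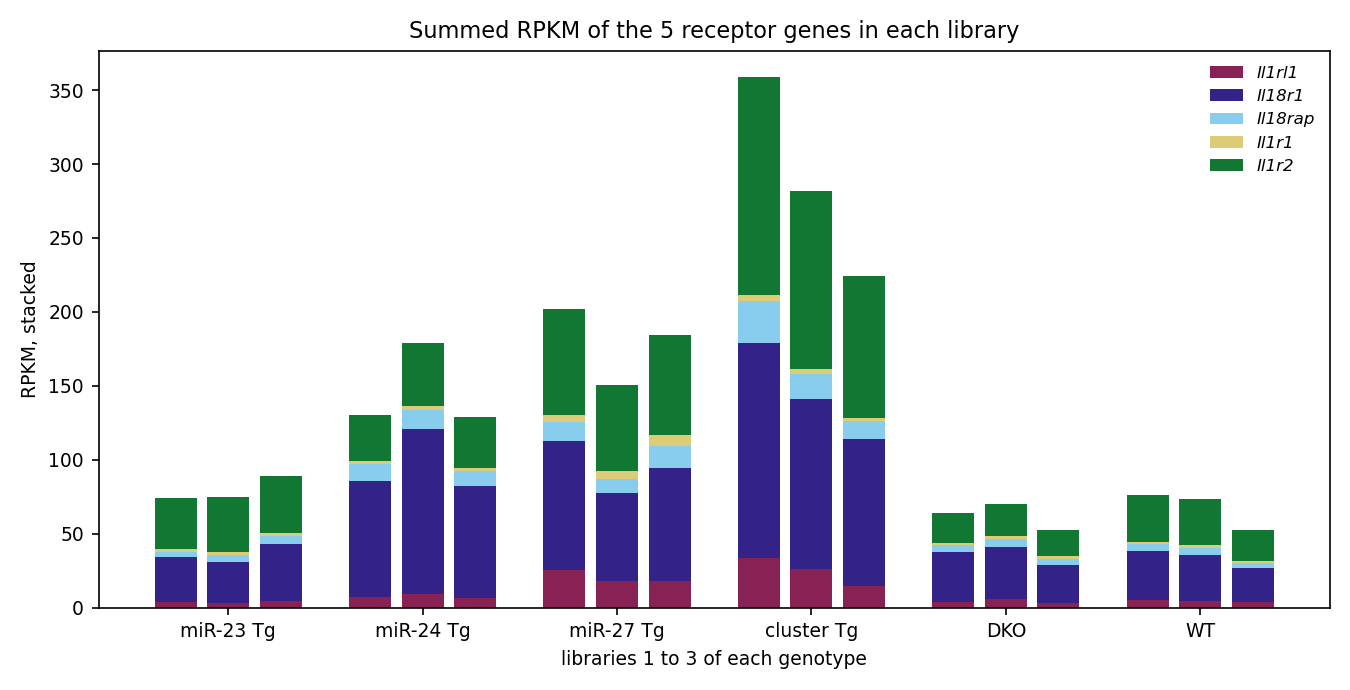
RPKM of the 5 receptor genes, stacked, in each of the 18 libraries (bars: libraries 1 to 3 of each genotype, left to right). The cluster Tg bars reach 224 to 359 RPKM and the WT bars 52.9 to 76.4. The Il18r1 block takes 58.5 to 62.1% in miR-24 Tg and 49.0 to 52.9% in DKO, against 42.0 to 43.8% in WT.

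Ratios between members within a library were compared with WT by an exact permutation test over libraries, two-sided, whose smallest possible p with 3 against 3 libraries is 0.1. The decoy-to-signalling ratio, Il1r2 to Il1r1, was 33.2, 33.6 and 47.5 in cluster Tg, against 23.8, 15.6 and 19.1 in WT (log2 difference 1.16, exact p = 0.1, adjusted p = 0.25 over the 5 genotypes). In DKO it was 14.3, 9.3 and 7.47 (log2 difference -0.83, exact p = 0.1, adjusted p = 0.25). The cluster Tg libraries thus lay above, and the DKO libraries below, every WT library, while miR-27 Tg (15.7, 10.1 and 9.72) overlapped WT. Il1rl1 to Il18r1 was 0.0909, 0.0869 and 0.0864 in miR-24 Tg and 0.289, 0.312 and 0.242 in miR-27 Tg, against 0.171, 0.159 and 0.163 in WT (exact p = 0.1 each, adjusted p = 0.167). In miR-23 Tg it was 0.134, 0.125 and 0.117 (exact p = 0.1, adjusted p = 0.167). The miR-23 Tg and miR-24 Tg libraries lay below all WT libraries and the miR-27 Tg libraries above them. The ratio of the IL-18 receptor chains, Il18r1 to Il18rap, was 5.15, 6.74 and 8.09 in cluster Tg and 6.78, 6.55 and 5.01 in miR-27 Tg, against 7.17, 6.81 and 6.88 in WT (exact p = 0.9 each). In miR-24 Tg it was 7.21, 8.67 and 7.11 (log2 difference 0.22, exact p = 0.1, adjusted p = 0.5), and 2 of its 3 libraries lay above all WT libraries in this plain ratio. The tests were run on the difference of log2(RPKM + 0.5) values, where all 3 miR-24 Tg libraries (2.79, 3.07 and 2.77) lay above WT (2.71, 2.64 and 2.61).

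The 5 receptor genes lie in 1 row on the plus strand of chromosome 1, within 477.6 kb (GRCm38, GENCODE M21). Il1r2 lies at chr1:40074079-40125231, Il1r1 at chr1:40225080-40317257, Il1rl1 at chr1:40429570-40465415, Il18r1 at chr1:40465552-40500854 and Il18rap at chr1:40515362-40551705. Only 136 bases separate the end of Il1rl1 and the start of Il18r1. Myd88 lies apart at chr9:119335934-119341411, on the minus strand. Between Il1r1 and Il1rl1 lies Il1rl2, which encodes the IL-36 receptor.

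Il1rl2 rose too, at a low level. Fold changes are of RPKM + 0.5, so at such levels they are smaller than the ratio of the RPKM values. It stood at 2.49, 1.28 and 1.395 RPKM in cluster Tg, against 0.569, 0.755 and 0.758 in WT (1.82-fold, adjusted p = 0.00831). In miR-24 Tg it stood at 1.44, 1.96 and 1.25 RPKM (1.70-fold, adjusted p = 0.0331), and in miR-27 Tg at 1.28, 1.72 and 1.62 (1.71-fold, adjusted p = 0.0124). All 9 libraries lay above every WT library. Of the genes that flank the row, Map4k4 and Mfsd9 were tested, and neither was called higher against WT. The kinase gene Map4k4 fell in cluster Tg to 45.1 ± 3.59 RPKM, against 58.0 ± 1.45 in WT (SD, n = 3 each; 1.28-fold, adjusted p = 0.0204), and the transporter gene Mfsd9 fell in miR-27 Tg to 0.513 ± 0.0815 RPKM, against 0.983 ± 0.119 in WT (1.46-fold, adjusted p = 0.00334). Of the sodium-proton exchanger genes, Slc9a4 was listed at 0 in each library. Slc9a2, which lies nearer the row than Mfsd9, stood at 0.416, 0.43 and 0.266 RPKM in miR-27 Tg, against 0.0178, 0.167 and 0.0787 in WT, with every miR-27 Tg library above every WT library. Tmem182 was listed at 0.0456 RPKM or less, and these 3 genes were too low to be tested.

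**Figure D4:**
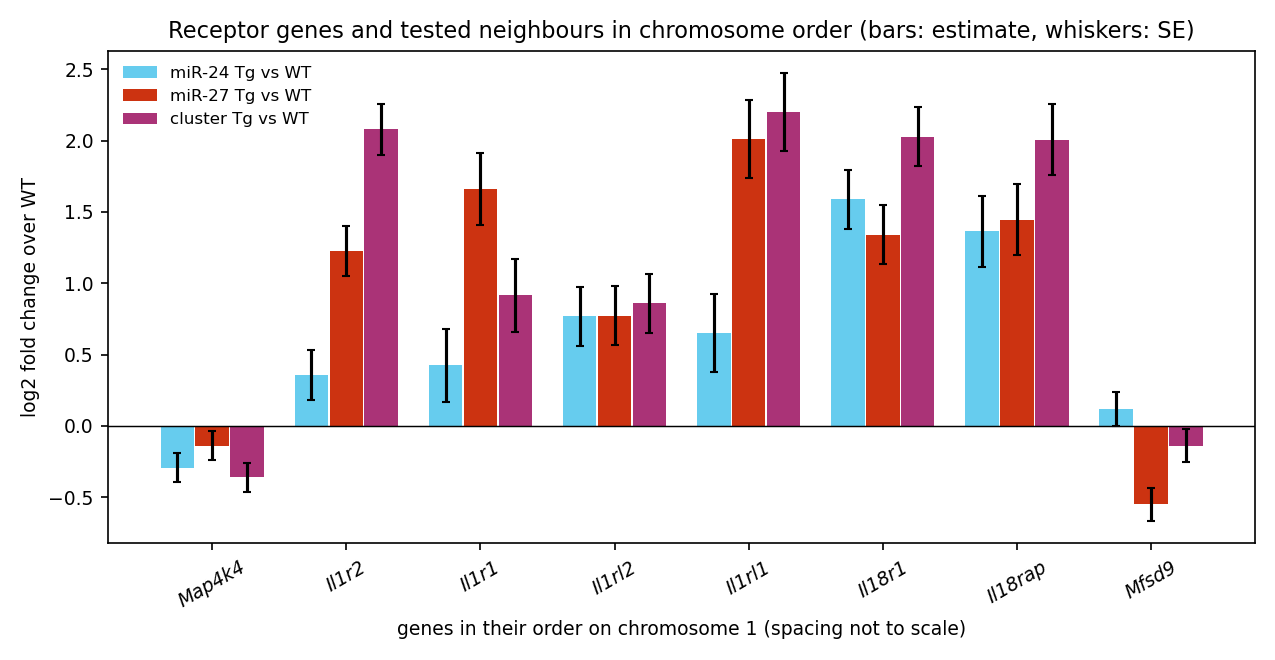
Log2 fold change against WT of the receptor genes and their tested neighbours in their order on chromosome 1 (bars: limma estimates, whiskers: SE; spacing not to scale). The 6 receptor genes in the middle are above 0 in miR-24 Tg, miR-27 Tg and cluster Tg, though Il1r2, Il1r1 and Il1rl1 did not pass in miR-24 Tg, while Map4k4 and Mfsd9 at the ends are at -0.55 to 0.12.

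Sequence was looked at from the promoter side because neighbouring genes moved together. RefSeq windows of 250 bases before to 50 after a start (GRCm38.p6) covered 10 annotated starts of the 6 members, and they were searched on both strands. The AP-1 motif was TGANTCA. For GATA factors the letters searched were AGATAA. The Runx motif was TGTGGT. AP-1 was found in 0 of the 10 windows and in 7.8% of 32851 windows of all genes, GATA in 2 and 11.2%, and Runx in 3 and 16.8%. The GATA matches were both at Il1rl1, the gene with the widest range, and its 250 bases before the upstream and the downstream start are shown, plus strand, with motif matches in capitals.
Il1rl1 upstream start, chr1:40429320-40429569: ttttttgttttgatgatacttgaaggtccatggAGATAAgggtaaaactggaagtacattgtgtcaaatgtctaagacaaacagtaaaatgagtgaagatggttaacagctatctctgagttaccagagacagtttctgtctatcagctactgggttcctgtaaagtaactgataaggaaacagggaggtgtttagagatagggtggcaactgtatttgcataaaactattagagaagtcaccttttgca
Il1rl1 downstream start, chr1:40439379-40439628: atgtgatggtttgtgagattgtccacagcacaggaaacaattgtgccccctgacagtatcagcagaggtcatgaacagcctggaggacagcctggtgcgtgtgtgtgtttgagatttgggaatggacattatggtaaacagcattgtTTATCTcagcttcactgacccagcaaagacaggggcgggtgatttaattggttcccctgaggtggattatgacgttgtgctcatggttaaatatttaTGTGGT
The upstream window holds 1 GATA match, and the downstream window 1 GATA match, on the minus strand as TTATCT, and 1 Runx match. Only the letters AGATAA were searched for GATA factors, so near variants, such as tgataa in the upstream window, were not counted and stay in lower case. A match describes the letters and shows no binding, and the RPKM values do not tell the starts apart.

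Seed sites in the 3' UTRs were described in the same way. In the longest annotated transcript, the 5 members with a 3' UTR of at least 50 bases (all but Il1r2, which has 24) held 0 matches of 7 bases to the miR-23a, miR-24 and miR-27a sites, which 16.5%, 19.1% and 17.1% of 10192 tested genes hold. Shorter transcripts of Il1rl1 and Il18r1 with other 3' ends held a miR-24 site, in capitals below with the bases around it (GENCODE M21, GRCm38, plus strand).
Il1rl1, site at chr1:40447630-40447636: gtcaccttaCTGAGCCagggtgttt
Il18r1, site at chr1:40491327-40491333: taatgatctCTGAGCCtcgttccca
The Il1rl1 site is followed by an A, opposite the first base of the microRNA, and the Il18r1 site is not. The deposited values are per gene and do not separate these forms. Neither gene was lower in miR-24 Tg than in WT.

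Of 63 listed symbols of IL-1 family and MyD88 signalling outside the members, 59 were in the table and 43 passed the filter. These lists too were chosen with earlier results of these data known. Of those 43, miR-27 Tg had 8 higher and 7 lower, cluster Tg had 6 higher and 4 lower, and miR-24 Tg had 5 higher and 1 lower. These are 18.6% and 16.3% in miR-27 Tg, where 15.9% and 12.7% of all genes were called, 14.0% and 9.3% in cluster Tg, where 13.8% and 10.5% were, and 11.6% and 2.33% in miR-24 Tg, where 4.6% and 4.38% were, so in miR-27 Tg and cluster Tg the shares were near those of all genes. Without the 2 libraries high in B cell and myeloid genes, miR-27 Tg had 5 higher and 4 lower and miR-24 Tg had 2 higher. The lower count in miR-27 Tg was also 4 without its library 2 or 3 or WT library 3, and 3 without WT library 1. The higher count in miR-24 Tg was 2 without its library 1 or WT library 3, and 3 without its library 2 or WT library 2, and its lower count was 2 without its library 2. In miR-23 Tg limma called 0, with 11 at an unadjusted p under 0.05, and in DKO it called 0, with 0 at an unadjusted p under 0.05. Their median log2 fold change was between -0.057 and 0.01, against -0.0041 to 0.0161 for all genes tested. In miR-23 Tg, Il1b, the gene of the ligand IL-1 beta, stood at 1.28, 1.74 and 1.09 RPKM, against 0.13, 0.131 and 0.102 in WT (adjusted p = 0.118).

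Among ligands, 2 of 8 genes in the table passed the filter. Il18, the gene of the IL-18 cytokine, stood at 5.05, 4.42 and 3.57 RPKM in cluster Tg, against 1.81, 1.05 and 0.782 in WT (2.89-fold, adjusted p = 0.000307). It stood at 4.23, 2.27 and 3.52 RPKM in miR-27 Tg (2.25-fold, adjusted p = 0.00134) and at 3.26, 2.75 and 2.998 in miR-24 Tg (2.10-fold, adjusted p = 0.00755). Il18 thus rose in the same 3 genotypes as both of its receptor chains. The sum of 6 myeloid genes was 21.2 to 111 RPKM in miR-24 Tg, 29.2 to 89.0 in miR-27 Tg and 23.9 to 35.5 in cluster Tg. Every library of these groups lay above WT (12.3 to 19.2 RPKM), as did those of miR-23 Tg (28.6 to 45.9), where Il18 did not pass. The part of myeloid RNA in the Il18 values was not tested. Il33, the gene of the ST2 ligand, was listed at 0.0629 RPKM or less in every library.

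Among inhibitors and accessory chains, Il1rn, which encodes the IL-1 receptor antagonist, stood at 3.56, 4.82 and 5.33 RPKM in miR-27 Tg, against 0.59, 0.837 and 0.455 in WT (4.49-fold, adjusted p = 1.31e-05). In cluster Tg it stood at 2.54, 1.88 and 2.16 RPKM (2.40-fold, adjusted p = 0.000568). As with Il1r1, the highest group was miR-27 Tg. Il1rap, the accessory chain shared by the IL-1, IL-33 and IL-36 receptors, rose 1.37-fold in miR-24 Tg, at 7.44 ± 0.347 RPKM, against 5.32 ± 0.439 in WT (SD, n = 3 each; adjusted p = 0.023). Sigirr, an inhibitory receptor, rose 1.16-fold in cluster Tg (adjusted p = 0.0382), and Il18bp, which encodes the IL-18 binding protein, passed in no comparison with WT.

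Downstream of MyD88, 17 genes were tested, of which 5 fell and 2 rose in miR-27 Tg and 3 fell in cluster Tg. As shares that is 29.4% lower and 11.8% higher in miR-27 Tg, beside 12.7% and 15.9% of all genes, and 17.6% lower in cluster Tg, beside 10.5%. Traf6, the ubiquitin ligase, stood at 19.6 ± 1.42 RPKM in cluster Tg and 18.6 ± 2.76 in miR-27 Tg, against 27.5 ± 0.979 in WT (SD, n = 3 each; 1.39-fold and 1.48-fold lower, adjusted p = 0.00474 and 0.00141). Ikbkb, an IkB kinase gene, was 1.296-fold lower in cluster Tg and 1.24-fold lower in miR-27 Tg, and Mapk14, the gene of p38 alpha, was 1.31-fold and 1.18-fold lower there. In miR-27 Tg the kinase gene Irak2 was also 1.31-fold lower, while the adaptor gene Tirap was 1.56-fold higher and the kinase gene Irak4 1.196-fold higher. Ikbkg, the gene of an IkB kinase subunit, fell in miR-27 Tg as well, to 12.05 ± 0.784 RPKM, against 14.5 ± 0.692 in WT (SD, n = 3 each).

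Other regulators were listed too, inhibitors such as Tnfaip3 together with the Pellino genes, which are not taken here as inhibitors. Of the 10 tested, Peli2, which encodes a ubiquitin ligase of the Pellino family, was lower in 3 genotypes. It stood at 0.329, 0.331 and 0.296 RPKM in cluster Tg, against 2.14, 2.21 and 1.47 in WT (log2 fold change -1.56, adjusted p = 0.000515). The log2 fold change was -1.27 in miR-27 Tg and -1.44 in miR-24 Tg, and no library of the 3 groups overlapped WT. Its relative Peli1 fell 1.38-fold in miR-27 Tg (adjusted p = 0.000182). Among inflammasome genes, the adaptor gene Pycard rose 1.51-fold in miR-27 Tg and 1.34-fold in cluster Tg, and the sensor gene Nlrp1b rose 1.52-fold in miR-27 Tg and 1.72-fold in miR-24 Tg. Tlr2, a Toll-like receptor gene that also uses MyD88 and was chosen for naming after its values were seen, rose 1.69-fold in cluster Tg, 2.33-fold in miR-27 Tg and 1.96-fold in miR-24 Tg. Myeloid cells also express Tlr2, Il1b and Il1rn. Of 5 myeloid markers tested, 4 were called higher in miR-27 Tg and 2 in miR-24 Tg. In cluster Tg limma called 0, with 1 at an unadjusted p under 0.05, and in miR-23 Tg it called 0, with 2. The myeloid sum was nevertheless 23.9 to 35.5 RPKM in cluster Tg and 28.6 to 45.9 in miR-23 Tg, against 12.3 to 19.2 in WT, with every library of both groups above every WT library. The part of myeloid RNA in these values, the Il1b level in miR-23 Tg included, was not tested.

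**Figure D5:**
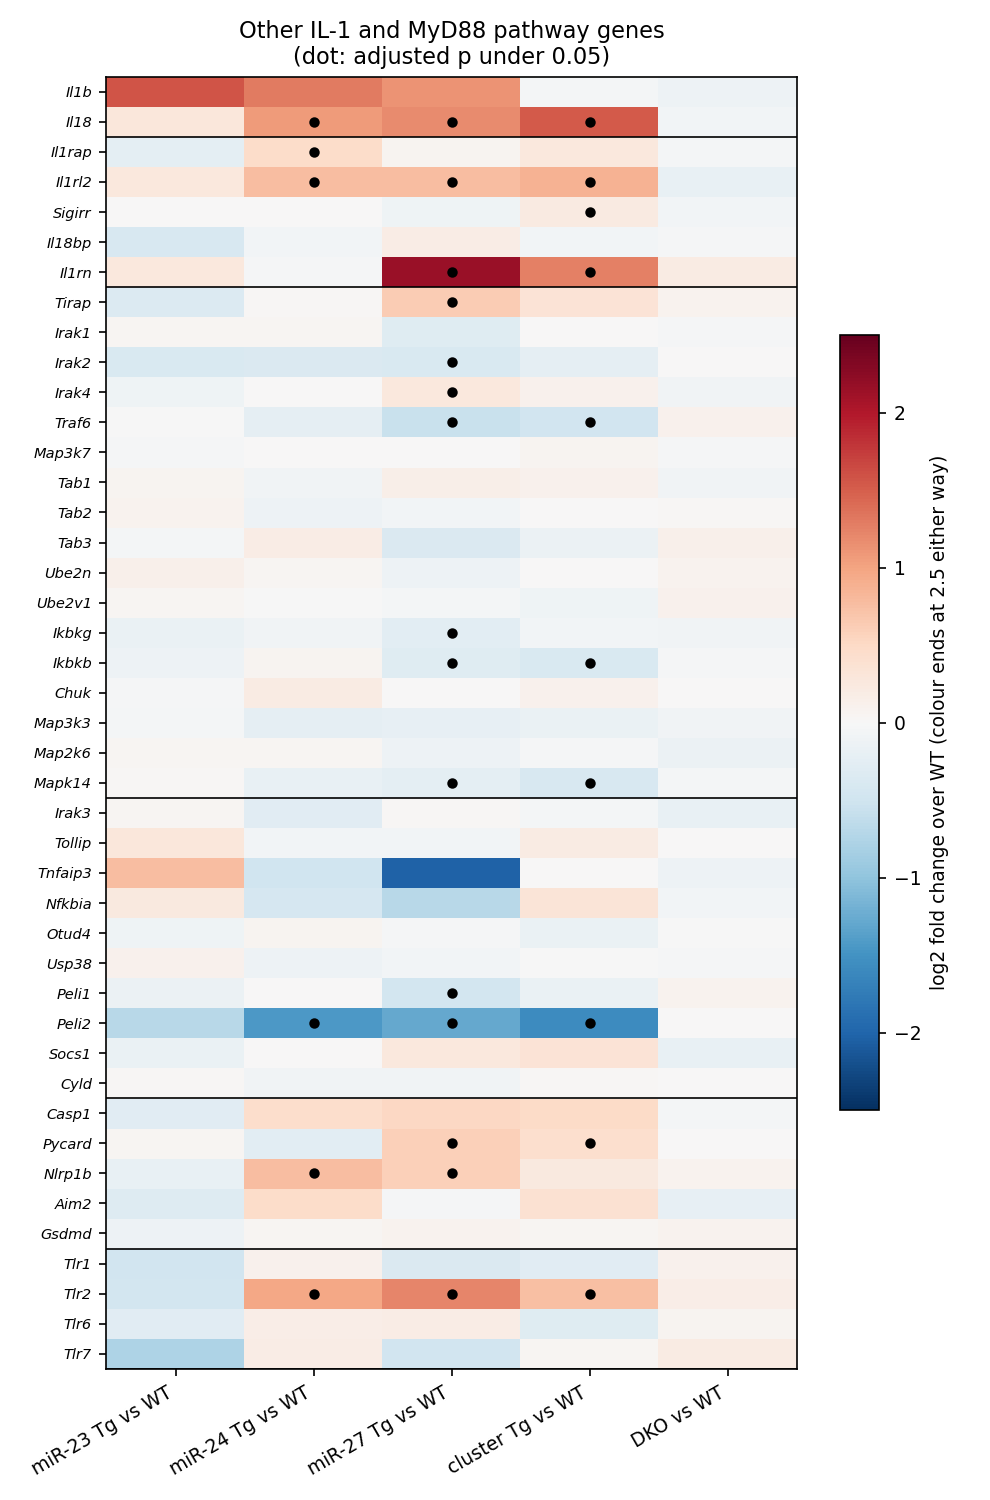
Log2 fold change against WT of 43 other genes of the pathway, by role from top to bottom (ligands, other receptors and soluble inhibitors, MyD88 to TAK1 signalling, other regulators, inflammasome, Toll-like receptors; black dot: adjusted p under 0.05). Il18, Il1rl2 and Tlr2 are red and Peli2 blue with a dot in miR-24 Tg, miR-27 Tg and cluster Tg, and the miR-23 Tg and DKO columns hold no dot.

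Of the 7 pathway genes called lower in any genotype against WT, 4 (57.1%) held a site of any of the 3 microRNAs in the longest 3' UTR, against 19 of all 43 tested (44.2%). Of the 10 genes called higher, 3 held one: Tirap has a miR-27a site and was higher in miR-27 Tg, Il1rap has a miR-24 site and was higher in miR-24 Tg, and Pycard has 2 miR-24 sites and was higher in cluster Tg. By microRNA, 6, 9 and 9 of the 43 genes held a miR-23a, miR-24 and miR-27a site. A site each of 3 of them is shown (capitals), the genes whose site belongs to a microRNA overexpressed in a group where they fell. Mapk14 holds another miR-27a site and a miR-24 site, and Peli2 holds a miR-23a site.
Traf6, miR-24 site at chr2:101699694-101699700: agcccagtgCTGAGCCacaatactc
Mapk14, miR-27a site at chr17:28746371-28746377: tctcacttcACTGTGAggggaagac
Peli2, miR-27a site at chr14:48256619-48256625: taacacgttACTGTGAagattccgc
Traf6 fell in cluster Tg and in miR-27 Tg, and of these only cluster Tg overexpressed miR-24. Peli2 also fell in miR-24 Tg, and its longest 3' UTR held no miR-24 site.

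Genes known from ST2-positive Treg cells were listed as a further comparison, without Il1rl1 itself. The list was chosen with earlier results of these data known, so its shares are description and no independent test. Of 16 tested, 8 rose and 1 fell in miR-27 Tg, 6 rose in cluster Tg, 3 in miR-24 Tg and 1 in miR-23 Tg, and in DKO limma called 0, with 2 at an unadjusted p under 0.05. The share called higher was 50% in miR-27 Tg, 37.5% in cluster Tg, 18.8% in miR-24 Tg and 6.25% in miR-23 Tg, beside 15.9%, 13.8%, 4.6% and 0.156% of all genes, and 6.25% were lower in miR-27 Tg, beside 12.7%. Klrg1, a surface receptor of effector Treg cells, stood at 85.8, 56.2 and 49.6 RPKM in miR-27 Tg, against 15.4, 16.3 and 10.5 in WT (4.37-fold, adjusted p = 0.000365). In cluster Tg it stood at 57.8, 45.2 and 27.9 RPKM (2.95-fold, adjusted p = 0.00313). Klrg1 thus rose in the genotypes in which Il1rl1 passed, and in miR-24 Tg its libraries (16.1, 11.5 and 10.04 RPKM) overlapped WT.

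Batf, a transcription factor gene needed by tissue Treg cells, rose 1.999-fold in cluster Tg (adjusted p = 0.000143) and 1.72-fold in miR-27 Tg (adjusted p = 0.000562). Il9r, the IL-9 receptor gene, rose 2.82-fold in cluster Tg, 2.94-fold in miR-27 Tg and 2.47-fold in miR-24 Tg, and Tigit, an inhibitory receptor gene, 2.85-fold, 2.12-fold and 2.03-fold. Irf4, a transcription factor gene of effector Treg cells, rose 1.63-fold in miR-27 Tg (adjusted p = 2.34e-05), and Prdm1, which encodes Blimp-1, rose 1.81-fold in miR-24 Tg and 1.73-fold in miR-27 Tg (adjusted p = 0.0212). Rora, a nuclear receptor gene, rose 2.197-fold in cluster Tg and 1.72-fold in miR-27 Tg (adjusted p = 0.0465). Bmp7 was the gene that rose in miR-23 Tg (1.76-fold, adjusted p = 0.0175), and it rose 1.68-fold in cluster Tg and 1.52-fold in miR-27 Tg. Gata3, a factor known to support Il1rl1, stood at 79.9, 80.9 and 35.3 RPKM in cluster Tg, against 47.6, 50.1 and 38.4 in WT (adjusted p = 0.293), and Areg, Ccr8 and Il10 did not pass in any comparison with WT. Lower by mean in miR-27 Tg than in WT were Tnfrsf9 (83.1 ± 17.6 against 104 ± 2.82 RPKM) and Itgae (41.9 ± 22.5 against 63.2 ± 21.9 RPKM, SD, n = 3 each). Nfil3, Areg, Ccr8 and Il10 were also lower there by mean.

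The genes most like each member in log2(RPKM + 0.5) over the 18 libraries are given as a description, since libraries of 1 genotype share their group and no p applies. Il18r1 and Il18rap were each other's nearest among the tested genes, predicted, clone, small RNA and antigen receptor segment symbols left aside (Pearson r = 0.974). For Il1rl1 the nearest were Slc15a3 (r = 0.978), Trim16, Susd2, Apobec1 and Fam129b. For Il1r2 they were Nrn1 (r = 0.971), Itga7, Axl, Rassf8 and Eea1. For Il1r1 they were Plekhf1 (r = 0.936), Ehd4, Fam83g, Kctd17 and Gpnmb. Besides its partner, Il18r1 was nearest to Krt17, Fam129a, Mtmr11 and Naip2, and Il18rap to Ccr3, Serpinf1, Crybg3 and Slc2a6. Myd88 was nearest to Lrwd1 (r = 0.922), Tbcb, Ebp, Acot7 and Fabp4. Among the members, r was 0.906 between Il1rl1 and Il1r2 and 0.867 between Il1rl1 and Il18r1, and lowest of the receptor pairs between Il18r1 and Il1r1 (0.558).

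ST2 is also known from mast cells and basophils, and the IL-18 receptor from NK cells. The summed level of 6 mast cell or basophil markers was 1.9 to 2.54 RPKM in cluster Tg and 3.12 to 4.74 in miR-27 Tg, against 2.29 to 2.84 in WT, with 3, 0 and 4 of the 6 at 0 in every library of the group. This sum was 1.25 to 5.69 RPKM in miR-24 Tg, 1.94 to 2.68 in miR-23 Tg and 2.43 to 4.31 in DKO. The sum of 3 NK cell markers was 3.13 to 10.9 RPKM in cluster Tg, 4.31 to 11.7 in miR-27 Tg and 5.68 to 6.72 in miR-24 Tg, against 3.52 to 4.01 in WT. This NK cell sum was also above every WT library in miR-23 Tg (5.03 to 6.66 RPKM) and DKO (4.14 to 6.41 RPKM). It had its highest cluster Tg value in library 1, as the members did. Il18r1 stood at 119.8 ± 23.3 RPKM in cluster Tg, 74.3 ± 14.3 in miR-27 Tg and 88.6 ± 19.8 in miR-24 Tg, against 29.0 ± 5.13 in WT (SD, n = 3 each). In miR-23 Tg and DKO, where Il18r1 did not pass, it stood at 32.2 ± 5.89 and 31.7 ± 5.26 RPKM. The part of mast cells, basophils and NK cells in the results was not tested.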

How the data were processed

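RNA-seq was made from sorted Treg cells of 6 genotypes, 3 libraries each, with small RNAs kept and a TruSeq preparation, per the labels' protocols. The authors deposited 1 table of RPKM values per gene. STAR 2.2.0c, HOMER and mm10 (GRCm38) are named in the submitters' processing notes; which step made the RPKM values, and the annotation, are not given in the sources used here. Of 23953 entries, 4 with a repeated symbol were left out.

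Here RPKM was taken as log2(RPKM + 0.5), a scale that understates changes of low genes, and 11520 genes that reached 1 RPKM in 3 libraries or more were fitted over 18 libraries with limma 3.58.1 (R 4.3.3, trended variance, prior df 2.26), two-sided, with Benjamini-Hochberg adjustment within each comparison at 0.05. The depth was estimated from whole-read steps in low values; 87 to 100% of values used were whole within 0.03 reads, and not all, so no count test was run. Ratios were tested by exact permutation in scipy 1.17.1 (Python 3.11.15, pandas 2.3.3, matplotlib 3.10.9). The fit was tested on simulated data.

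The members and gene lists were chosen with earlier results of these data known. Named genes were the members, per list and comparison with WT the called genes up to the 6 of smallest p, and the 5 genes most correlated with each member. Tnfaip3, Tlr2, Il1b, Il33, Il18bp, Gata3, Areg, Ccr8 and Il10, Prdm1 and Rora in miR-27 Tg, and neighbours that were not tested, were named after their values were seen. The same holds for Tnfrsf9, Itgae, Nfil3 and Ikbkg. Alternatives were another pseudocount, no filter, another scaling, only the 2 compared groups, a replicate block, and libraries left out.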

Additional observations from a re-analysis of the deposited data

How the results depend on the processing

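Of 12 member calls against WT, 11 held under every alternative run, the exception being Il1r1 in cluster Tg (log2 0.71 to 1.19, adjusted p = 0.00284 to 0.101). Of 18 calls between other groups 15 held, the exceptions being Il1rl1 in miR-24 Tg against miR-23 Tg (ended in 9 of 13 alternatives), Il1rl1 in cluster Tg against miR-24 Tg and Il1r2 in cluster Tg against miR-27 Tg. With only the 2 compared groups in the fit, 1 member was called in cluster Tg against miR-24 Tg and 0 against miR-27 Tg; with 1 library left out these counts were 2 to 4 and 0 to 2. Over all genes tested, libraries with the same replicate number in different groups shared little deviation from their group means (45 pairs, median correlation 0.00397, 6 over 0.1). Such a median cannot exclude a factor shared by some groups, and Tnfaip3 was low in library 3 of cluster Tg, DKO and WT. With a replicate block 2, 5 and 5 members were called higher in miR-24 Tg, miR-27 Tg and cluster Tg against WT, as without it. Signs turned only for differences that did not pass. Median-of-ratios scaling gave Myd88 -0.0030 on the log2 scale in DKO against WT. Leaving out the 2 libraries high in B cell and myeloid genes gave 0.087 for Il1r2 in miR-24 Tg against miR-23 Tg, -0.11 for Il18rap in miR-27 Tg against miR-24 Tg and 0.013 for Myd88 in cluster Tg against miR-27 Tg. With 1 library left out, log2 values in miR-23 Tg against WT were -0.0040 to 0.25 for Il18r1, -0.044 to 0.22 for Il18rap and -0.021 to 0.051 for Myd88. In miR-24 Tg against WT they were -0.0042 to 0.066 for Myd88, and against miR-23 Tg -0.13 to 0.16 for Il1r1, -0.15 to 0.087 for Il1r2 and -0.023 to 0.048 for Myd88. For Il18rap in miR-27 Tg against miR-24 Tg they were -0.075 to 0.28. In cluster Tg against miR-27 Tg they were -0.069 to 0.52 for Il1rl1 and -0.10 to 0.024 for Myd88, and in DKO against WT -0.025 to 0.27 for Il18r1 and -0.035 to 0.045 for Myd88. Pathway counts against WT moved by over 1.5 times in some fits, to 2 or 3 higher and 2 lower in miR-24 Tg, 5 higher and 3 or 4 lower in miR-27 Tg, and 1 in each direction in miR-23 Tg. The cause of these shifts was not tested.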
